A study of Ovis aries with 6 samples.

Results

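The genes described here encode the machinery that acidifies the lysosome, digests proteins inside it and delivers cargo to it. They were picked by a rule on gene symbols, set with earlier results of these data known. The rule took the V-ATPase subunits (ATP6V) and the cathepsins with a single closing letter apart from CTSS. It also took the LAMP, VPS, MCOLN and CLN genes, NPC1, NPC2 and the hexosaminidase genes. The deposited table held 61 such genes among 11285 genes with a symbol, and each was followed by its transcript of highest mean level. Of the 61 genes, 51 had a mean of at least 1 RPKM (reads per kilobase of transcript, scaled to the library's depth) and were tested, and 10 lay below that level. The member just inside the limit was VPS13C at a mean of 1.16 RPKM, and the one just outside was VPS41 at 0.872 RPKM. The accessory V-ATPase genes and several well-known members, CTSD, CTSL, CTSA and LAMP1 among them, were not matched to a symbol and are not analysed here.

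RNA came from somatic cells pelleted from 250 ml of fresh milk, the mixture of shed mammary epithelial cells and immune cells that milk carries. The linseed group was 3 Comisana ewes after 3 weeks on grass, hay and a concentrate of which extruded linseed, a seed rich in alpha-linolenic acid, made up 20% of dry matter. The control group was the same 3 ewes, at day 90 of lactation when the study began, on grass hay and a commercial concentrate for 3 weeks. Each ewe gave 1 library per diet, and groups were read from the letter in the sample title, since no label field names the diet. The linseed period always followed the control period, so diet and time in lactation cannot be told apart. In every list of 3 values below the ewes stand in the order 1, 2 and 3.

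Lysosomes hold many hydrolases that work at acid pH. The V-ATPase, a rotary pump with a cytosolic V1 sector that splits ATP and a membrane V0 sector that passes protons, sets that pH, and cathepsins, the main lysosomal proteases, are activated in the acid lumen. Retromer, HOPS, CORVET and ESCRT are protein complexes, built largely from VPS proteins, that recycle receptors from endosomes, tether vesicles and sort membrane proteins for breakdown. In milk, macrophages and neutrophils are rich in lysosomes, and secretory epithelium uses them when the gland clears cells and secretions.

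The linseed libraries held 4941935, 5978026 and 19912996 reads and the control libraries 22644050, 8805705 and 10602801 reads, as solved from the steps of the RPKM values. The 51 tested members had between 212 and 405066 reads over the 6 libraries, with a median of 2660. The tissue label was checked against marker genes: casein CSN2 stood at 2291 to 29881 RPKM in linseed and 8144 to 119861 RPKM in control libraries, and macrophage genes such as CD68 were present in every library. The groups differed in such markers. Summed over the 8 of 12 macrophage markers that were matched, linseed libraries had 918, 1111 and 1604 RPKM and control libraries 102, 718 and 468 RPKM. For 5 of 12 neutrophil markers, MMP8 being at 0 in all 6 libraries, the sums were 3181, 2570.2 and 2143 RPKM in linseed and 419.6, 765 and 769 RPKM in control. S100A8 and S100A9 made up most of these sums. CXCR2 had 4.03, 9.78 and 9.24 RPKM in linseed and 0.0977, 4.99 and 7.99 RPKM in control, higher in each ewe with overlapping groups. For 7 of 11 epithelial markers the sums were 66541, 79395 and 4789 RPKM in linseed and 266549, 177141 and 18001 RPKM in control. Caseins made up most of the epithelial sums, and the keratin gene KRT8 went the other way in ewes 1 and 2, with 355, 500.0 and 21.3 RPKM in linseed and 17.6, 98.6 and 54.5 RPKM in control, as did LALBA. The sums of 5 of 9 T and NK cell markers were 93.2, 62.7 and 146 RPKM in linseed and 8.1, 154 and 591 RPKM in control, those of 4 of 4 B cell markers did not exceed 17.6 RPKM, and the erythrocyte marker matched, ALAS2, was at 0. In bulk samples such as these, fewer cells of a type and less RNA per cell cannot be told apart.

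The main features of the lysosomal genes were a higher level of 4 cathepsins in linseed libraries of all 3 ewes, and lower levels of the retromer subunit VPS35, the membrane protein LAMP2 and the V1 subunits ATP6V1A and ATP6V1H in ewes 1 and 2, with little or no such difference in ewe 3. No member passed an adjusted p under 0.05 in limma's moderated test without the sheep as a block, nor did any other tested transcript (0% of 15891), and the smallest adjusted p was 0.263. At an unadjusted p under 0.05 there were 6 of 51 members (11.8%), against 15.5% of all tested transcripts, a share no larger than the background: 4 were higher (8.5% of all tested) and 2 lower (7% of all tested). Leaving out linseed library 3 took this count to 17 members, against 24.5% of all tested transcripts. Leaving out linseed library 2 took it to 2 members, against 6.56%. When the ewe entered limma as a block, 12 members (23.5%) had an unadjusted p under 0.05, against 27% of all tested transcripts, and 1 member, CTSZ, was called, against 2.62% of all tested transcripts (1.28% higher and 1.34% lower). When milk protein genes were left out of the library totals as well, 6 members were called, against 12.8% of all tested transcripts: CTSZ higher (1.65% of all tested) and ATP6V1A, ATP6V1H, LAMP2, VPS26C and VPS35 lower (11.1% of all tested). The median log2 change of the 51 members, linseed minus control on the log2(RPKM + 1) scale, was 0.21 beside -0.12 for all tested transcripts, but it was -0.30 with the milk protein genes left out, which moved the median of all tested transcripts to -0.52. Without control library 1 the members' median was -0.13, beside -0.30 for all tested transcripts. It was 0.50, beside 0.03, without linseed library 1 and -0.27, beside -0.29, without linseed library 3. With quantile normalization it was 0.00, beside -0.01, and with a length correction 0.00, beside -0.04.

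The V-ATPase V1 sector was covered by 9 tested subunits, and its members did not move together. The median log2 change was -0.32, and it was -0.74, -0.71 and 0.45 in ewes 1, 2 and 3. It was -0.90 with milk proteins left out, -0.16 without linseed library 1 and -0.68 without linseed library 3. Values below are RPKM in each library, followed by the log2 change with its standard error (SE) from limma without the block unless another fit is named.

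ATP6V1A encodes the catalytic subunit that binds and splits ATP. It stood at 3.83, 8.23 and 70.1 RPKM in linseed libraries, against 24.2, 50.0 and 59.1 RPKM in control libraries. The groups overlapped, because linseed ewe 3 held the highest value of all 6 libraries while linseed ewes 1 and 2 held the lowest. The log2 change was -1.53 (SE 0.92, adjusted p = 0.418), and it was -0.73 without linseed library 1 and -2.67 without linseed library 3. Its partner in the catalytic ring, ATP6V1B2, had 16.5, 29 and 48.1 RPKM in linseed and 28.2, 48.3 and 33.6 RPKM in control libraries, which overlapped. ATP6V1H, the regulatory subunit H that couples the ring to the membrane sector, had 0.396, 5.48 and 31.5 RPKM in linseed libraries, against 22.5, 25.4 and 22.8 RPKM in control libraries. The linseed value of ewe 1 rested on 4 reads, and its log2 change was -1.88 (SE 0.96, adjusted p = 0.36), with -0.76 without linseed library 1 and -3.03 without linseed library 3. A second ATP6V1H transcript of lower level had 2.84, 5.46 and 5.17 RPKM in linseed and 4.92, 5.81 and 3.17 RPKM in control libraries, so the difference in ewe 1 was not of the same size across the gene's transcripts.

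ATP6V1F, the small subunit of the central rotor, went the other way. It had 591, 674 and 628 RPKM in linseed libraries and 87.5, 363 and 135 RPKM in control libraries, so that every linseed library lay above every control library. The mean was 631 ± 41.6 RPKM in linseed and 195 ± 147 RPKM in control (SD, n = 3 each), and the log2 change was 1.95 (SE 0.66, adjusted p = 0.264 in limma). As a ratio of levels per length within a library, a measure chosen after the values were seen, ATP6V1F to ATP6V1A was 155, 81.9 and 8.97 in linseed and 3.62, 7.26 and 2.28 in control libraries. The linseed ratio exceeded the control ratio in each ewe, most in ewe 1 and least in ewe 3.

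ATP6V1E1 and ATP6V1G1, which form the peripheral stalk that holds the ring still, were the next most abundant V1 transcripts. ATP6V1E1 had 131, 285 and 529 RPKM in linseed and 149, 361 and 191 RPKM in control libraries, with a log2 change of 0.31 that took the opposite sign under quantile normalization, with milk proteins left out, with a length correction and without linseed library 3. ATP6V1G1 had 69, 119 and 275 RPKM in linseed and 167, 194 and 253 RPKM in control libraries. Neither gene separated the groups. ATP6V1C1, the subunit that links stalk and ring when the pump assembles, had 5.57, 14 and 43.2 RPKM in linseed and 28.1, 44.5 and 27.2 RPKM in control libraries, with linseed ewes in the same order as for ATP6V1A. ATP6V1B1, a form of the ring subunit known from acid-secreting epithelia, was scarce, with 2.79, 4.97 and 0.181 RPKM in linseed and 0.133, 0.989 and 0.453 RPKM in control libraries. ATP6V1E2, best known from testis, lay between 2.18 and 7.64 RPKM in all 6 libraries. ATP6V1G3 had at most 0.235 RPKM, and ATP6V1G2 was at 0 in every library.

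The V0 sector had 8 tested subunits with a median log2 change of 0.37, which was -0.23 with milk proteins left out, -0.04 with quantile normalization, -0.03 with a length correction, -0.02 without control library 1 and -0.15 without linseed library 3. ATP6V0E1, ATP6V0C and ATP6V0B, small membrane proteins of which the last 2 line the proton-carrying ring, were the most abundant. ATP6V0E1 had 163, 262 and 581 RPKM in linseed and 108, 265 and 340.3 RPKM in control libraries. ATP6V0C had 99.4, 283 and 538 RPKM in linseed and 134, 225 and 269.8 RPKM in control libraries. ATP6V0B had 161, 268 and 400.3 RPKM in linseed and 126, 234 and 146 RPKM in control libraries. In all 3 genes the groups overlapped, and the highest value was that of linseed ewe 3. The signs of ATP6V0E1 (log2 change 0.45) and ATP6V0C (0.30) turned negative under quantile normalization, with milk proteins left out, with a length correction and without linseed library 3.

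ATP6V0D1 and ATP6V0D2 are alternative forms of the subunit that joins the rotor to the membrane ring. The widely expressed ATP6V0D1 had 107, 191 and 177 RPKM in linseed and 70.1, 112 and 46.8 RPKM in control libraries, higher under linseed in each ewe with overlapping groups (log2 change 1.09, SE 0.61, adjusted p = 0.395 in limma, and a log2 change of 0.49 with milk proteins left out). ATP6V0D2, known from osteoclasts and macrophages, was near the detection limit: it had 0, 0.676 and 1.14 RPKM in linseed, against 2.07, 2.52 and 2.05 RPKM in control libraries. Every linseed library lay below every control library, and the 0 of linseed ewe 1 allows up to 0.307 RPKM at 3 reads. The log2 change was -1.07 (SE 0.50, adjusted p = 0.332). ATP6V0A2, an a-subunit known from the Golgi and endosomes, had 1.21, 1 and 2.88 RPKM in linseed and 2.12, 1.02 and 13.5 RPKM in control libraries, a difference carried by control ewe 3, without which its log2 change of -0.80 became 0.04. ATP6V0A1, the a-subunit known from synaptic vesicles and lysosomes, had 3.39, 4.95 and 26.3 RPKM in linseed and 6.43, 6.22 and 12.4 RPKM in control libraries. Each of its 4 other transcripts had log2 changes between 0.90 and 1.38, against -0.01 for the most abundant, so that its direction depended on the transcript. ATP6V0E2, a paralog of ATP6V0E1, had 2.11, 2.32 and 2.67 RPKM in linseed and 0.488, 0.89 and 3.92 RPKM in control libraries. ATP6V0A4, the a-subunit of kidney, did not exceed 0.363 RPKM.

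**Figure D1:**
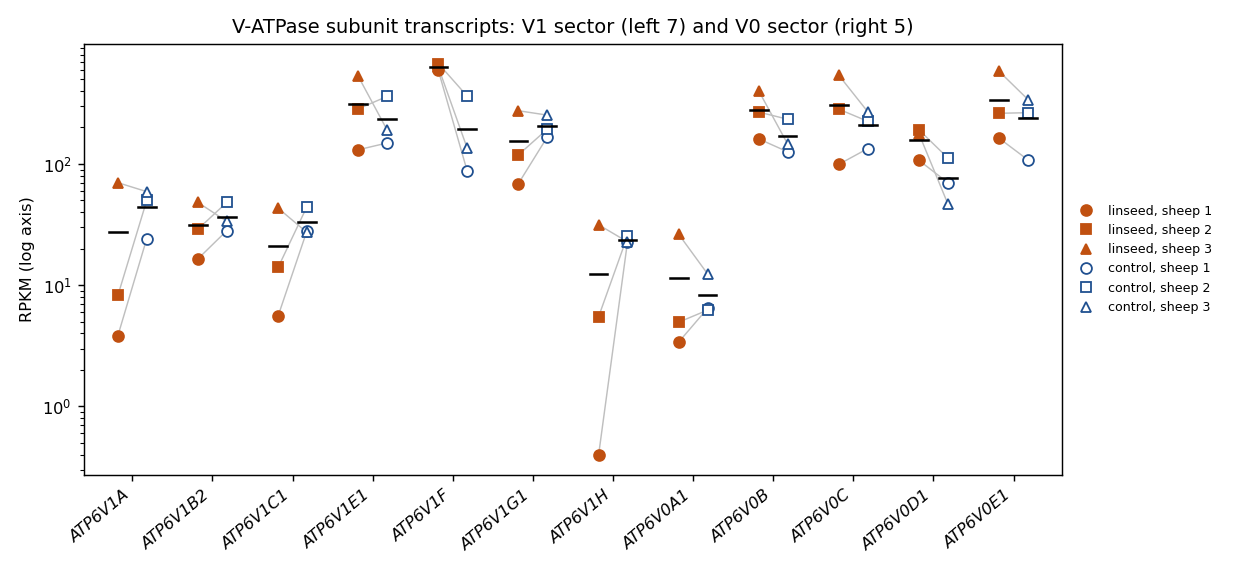
RPKM of 12 V-ATPase subunit transcripts on a log axis, with filled marks for linseed and open marks for control libraries, a mark shape for each ewe, grey lines joining the libraries of an ewe and black bars at the group means. ATP6V1F is higher under linseed in each ewe, whereas ATP6V1A, ATP6V1C1 and ATP6V1H have the low linseed values of ewes 1 and 2 and a linseed value of ewe 3 above its own control.

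The cathepsins were the role group with the largest median log2 change, 1.55, and it was 1.51, 0.91 and 2.14 in ewes 1, 2 and 3. Over every other scaling, filter, model and left-out library tried the median ranged from 0.96 to 1.94. Of the 6 tested cathepsins, 4 were higher under linseed in all 3 ewes and 3 had linseed libraries all above the control libraries. Among all tested transcripts 23% were higher in all 3 ewes and 13.3% had every linseed library above every control library, and among all 51 members the shares were 15 (29.4%) and 5 (9.8%).

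CTSZ, also called cathepsin X, is a cysteine carboxypeptidase that removes residues from the end of proteins and is abundant in macrophages and other myeloid cells. It had 3108, 3258 and 3583 RPKM in linseed libraries, against 137, 738 and 615 RPKM in control libraries. The lowest linseed library lay above the highest control library, and the linseed libraries were close to each other while the control libraries were spread out. The means were 3316 ± 243 RPKM in linseed and 496 ± 317 RPKM in control (SD, n = 3 each), a 6.68-fold ratio. The log2 change was 3.06 (SE 0.72), with an adjusted p = 0.263 in limma without the block and 0.0441 with the sheep as a block (SE 0.68). The blocked adjusted p was between 0.00657, with milk proteins left out, and 0.086, with a length correction, and it was over 0.05 in 5 of the 6 other blocked settings tried. Its log2 change ranged from 2.30 without control library 1 to 3.51 without control library 2.

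CTSB, a cysteine protease that cuts within chains and from their ends, was the most abundant cathepsin by mean. It had 1486, 3587 and 5541 RPKM in linseed and 604, 2175 and 945 RPKM in control libraries. Each ewe was higher under linseed, but linseed ewe 1 lay below control ewe 2, and the log2 change was 1.52 (SE 0.72, adjusted p = 0.335 in limma), or 0.92 with milk proteins left out. Together CTSB and CTSZ made up 70.4%, 69% and 65.7% of the summed RPKM of all 61 members in linseed libraries and 35.5%, 50.6% and 41.9% in control libraries. The ratio of CTSZ to CTSB was 2.09, 0.908 and 0.647 in linseed and 0.226, 0.339 and 0.651 in control libraries, so that in ewe 3 the 2 proteases kept nearly the same proportion under both diets.

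CTSH, an aminopeptidase that also processes other lysosomal and surfactant proteins, had 173, 244 and 307 RPKM in linseed libraries and 23.2, 114 and 46.8 RPKM in control libraries. The groups did not overlap, and the log2 change was 2.21 (SE 0.69, adjusted p = 0.263 and, with the block, 0.0594 in limma). CTSF, a cysteine endopeptidase, had 35.4, 54 and 50.8 RPKM in linseed and 10.1, 21.7 and 14.5 RPKM in control libraries, also without overlap, with a log2 change of 1.58 (SE 0.59, adjusted p = 0.275), or 1.01 with milk proteins left out. CTSH and CTSZ were the members whose unadjusted p stayed under 0.05 in every fit tried. The remaining cathepsins did not separate the groups. CTSC, which activates the granule serine proteases of neutrophils and cytotoxic lymphocytes, had 12.7, 43.4 and 98.4 RPKM in linseed and 8.97, 89.8 and 35.4 RPKM in control libraries. CTSK, the collagen-degrading protease of osteoclasts, had 7.21, 15.5 and 11.5 RPKM in linseed and 6.93, 62 and 13.4 RPKM in control libraries, with the high value in control ewe 2.

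Several macrophage and neutrophil markers were higher beside the cathepsins. TREM2, a receptor of macrophages, had 304, 258 and 277 RPKM in linseed libraries, against 6.75, 83 and 13.5 RPKM in control libraries. S100A9, a calcium-binding protein of neutrophils and monocytes, had 1789.9, 1383 and 934 RPKM in linseed and 222, 300.3 and 297 RPKM in control libraries. For both genes, as for CTSZ, the groups did not overlap, and 4 of 7 tested macrophage markers and 4 of 4 tested neutrophil markers were higher under linseed in all 3 ewes, against 23% of all tested transcripts. The other macrophage markers were not: CD14 was lower in ewes 2 and 3, MSR1 was lower in ewes 1 and 2, and MRC1 was lower in all 3 ewes, with 0, 1.23 and 5.73 RPKM in linseed and 2.77, 7.36 and 12.4 RPKM in control libraries. The part of these cells in the cathepsin values was not tested.

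HEXA encodes a subunit of beta-hexosaminidase, which trims sugars from gangliosides. It had 37.9, 88.6 and 111 RPKM in linseed and 24.9, 65.8 and 22.9 RPKM in control libraries. It was higher under linseed in all 3 ewes, with overlapping groups and the widest gap in ewe 3, and its log2 change was 1.08 (SE 0.68, adjusted p = 0.439), or 0.49 with milk proteins left out.

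The CLN genes take their name from neuronal ceroid lipofuscinoses, the storage diseases that their loss causes. CLN3, a lysosomal membrane protein, had 14.6, 13.7 and 41.2 RPKM in linseed and 5.89, 9.23 and 28.8 RPKM in control libraries, higher in each ewe with overlapping groups. The highest value on each diet was that of ewe 3, and the log2 change was 0.74 (SE 0.73, adjusted p = 0.621). It was 0.18 with milk proteins left out and 0.24 without linseed library 3. CLN6 and CLN8, proteins of the endoplasmic reticulum that help enzymes leave for the lysosome, lay between 1.52 and 9.77 RPKM in all libraries, and the log2 change of CLN8, 0.34, was -0.16 with milk proteins left out.

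Within the limiting membrane and the lipid export route, the transcripts also split. LAMP2, a heavily glycosylated membrane protein needed for autophagy, had 1.64, 6.24 and 44.8 RPKM in linseed libraries, against 39.7, 37.5 and 51.3 RPKM in control libraries. Linseed ewe 3 lay inside the control range, and linseed ewes 1 and 2, at 26 and 120 reads, lay far under it. The log2 change was -2.18 (SE 0.91), with an adjusted p = 0.297 in limma, and 0.0721 with the block. It was -1.26 without linseed library 1 and -3.31 without linseed library 3. A longer LAMP2 transcript had 2.7, 4.15 and 10.0 RPKM in linseed and 7.04, 6.74 and 10.2 RPKM in control libraries, lower in each ewe by less.

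NPC1 and NPC2 hand cholesterol out of the lysosome, NPC2 as the soluble carrier and NPC1 as the membrane protein that takes it over. They stood in opposite directions. NPC2 had 170.2, 251 and 308 RPKM in linseed and 84.6, 227 and 85.6 RPKM in control libraries, and NPC1 had 3.15, 4.19 and 7.36 RPKM in linseed and 16.2, 7.28 and 10.7 RPKM in control libraries. NPC2 was higher and NPC1 lower under linseed in all 3 ewes, with overlapping groups for each and log2 changes of 0.99 (SE 0.64, adjusted p = 0.448) and -1.07 (SE 0.60, adjusted p = 0.393). With milk proteins left out the log2 changes were 0.39 for NPC2 and -1.60 for NPC1. The ratio of NPC2 to NPC1, chosen after the values were seen, was 54, 59.8 and 41.9 in linseed and 5.23, 31.2 and 7.98 in control libraries. These ratios did not overlap. A second NPC2 transcript of lower level had 56.4, 36.8 and 33.1 RPKM in linseed and 9.12, 19.6 and 6.55 RPKM in control libraries. For that transcript the groups did not overlap (log2 change 1.85, SE 0.62, adjusted p = 0.264 in limma).

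LAMP3, a LAMP family member known from mature dendritic cells, had 0.663, 0.704 and 2.6 RPKM in linseed and 0.196, 2.66 and 17.7 RPKM in control libraries, and control ewe 3 carried the difference, since its negative log2 change became 0.05 without that library. MCOLN1 and MCOLN3, calcium channels of the endolysosomal membrane, did not exceed 11.4 RPKM, and MCOLN1's 2 other transcripts had log2 changes of 1.00 and 0.98 against 0.24 for the most abundant. LAMP5 was at 0 in every library.

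**Figure D2:**
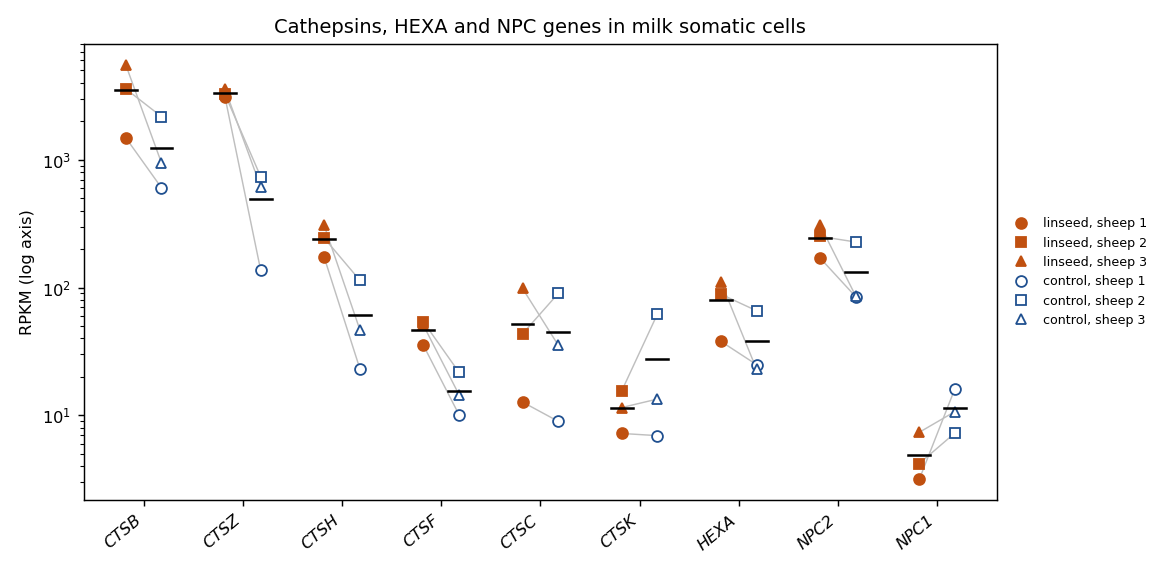
RPKM of 6 cathepsins, HEXA and both NPC genes on a log axis, drawn with filled marks for linseed and open marks for control, a shape for each ewe, grey lines within an ewe and black bars at group means. CTSZ, CTSH and CTSF show linseed marks wholly above control marks, and NPC2 and NPC1 slope in opposite directions.

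Retromer and its relatives, 4 tested genes, had a median log2 change of -1.22, and it was -2.86, -1.57 and 0.47 in ewes 1, 2 and 3. The median was -0.36 without linseed library 1 and -2.11 without linseed library 3. VPS35, the scaffold of retromer, had 1.85, 5.45 and 26.5 RPKM in linseed libraries and 30.4, 27.2 and 33.8 RPKM in control libraries. The highest linseed library lay just under the lowest control library, at 26.5 against 27.2 RPKM, so the groups did not overlap only by a narrow margin. The log2 change was -1.98 (SE 0.79), with an adjusted p = 0.291 in limma and 0.0775 with the block. Its log2 change was -1.24 without linseed library 1 and -2.87 without linseed library 3. Among all tested transcripts 7.83% had every linseed library below every control library, against 2 of the 51 members (3.92%), VPS35 and ATP6V0D2.

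VPS29, the other core retromer subunit measured, had 4.26, 15.9 and 56 RPKM in linseed and 32.7, 55.4 and 19.7 RPKM in control libraries. Its direction was opposite in ewe 3, and the log2 change was -0.98 (SE 0.85, adjusted p = 0.567), with -0.13 without linseed library 1 and -1.85 without linseed library 3. VPS26C and VPS35L belong to retriever, a relative of retromer that recycles other cargo and shares VPS29 with it. VPS26C had 0, 2.05 and 11 RPKM in linseed and 7.17, 7.14 and 10.3 RPKM in control libraries, the 0 allowing up to 0.465 RPKM at 3 reads. VPS35L had 6.06, 7.83 and 16.4 RPKM in linseed and 2.33, 7.47 and 8.66 RPKM in control libraries. The retriever scaffold VPS35L was higher in each ewe, though by only 0.06 log2 units in ewe 2. The ratio of VPS35 to VPS35L, chosen after the values were seen, was 0.305, 0.696 and 1.61 in linseed and 13, 3.65 and 3.9 in control libraries. Neither log2 change of the retriever genes passed the test (VPS26C -1.45, SE 0.83, adjusted p = 0.398, and VPS35L 0.67, SE 0.66, adjusted p = 0.621). VPS26C was at -0.59 without linseed library 1 and -2.38 without linseed library 3, and VPS35L at 0.16 with milk proteins left out and 0.18 without control library 1.

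HOPS and CORVET tether late and early endosomes before they fuse, and share a core that includes VPS16, VPS18 and VPS33A. The 5 tested genes had a median log2 change of 0.27, which was -0.21 with milk proteins left out, -0.02 without linseed library 3 and 0.54 without linseed library 1. VPS18 had 7.37, 9.16 and 10.3 RPKM in linseed and 4.38, 4.19 and 5.75 RPKM in control libraries, and the groups did not overlap. Its log2 change was 0.78 (SE 0.55, adjusted p = 0.485), between 0.64 and 0.97 in each ewe, and 0.26 with milk proteins left out. VPS16 had 10.6, 13.7 and 18.4 RPKM in linseed and 7.19, 10.8 and 15.2 RPKM in control libraries, higher in each ewe, with a sign that turned when milk proteins were left out. VPS33A had 2.89, 5.23 and 16.4 RPKM in linseed and 3.22, 7.41 and 5.73 RPKM in control libraries, while VPS39, which is specific to HOPS, had 1.53, 4.89 and 6.63 RPKM in linseed and 3.84, 2.78 and 12.8 RPKM in control libraries. VPS33B, a VPS33A relative that acts outside these complexes, lay between 1.27 and 4.77 RPKM. VPS41, specific to HOPS, and VPS8, specific to CORVET, were below the test limit.

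ESCRT sorts ubiquitin-tagged membrane proteins into vesicles inside the endosome. VPS36, of ESCRT-II, had 2.98, 1.47 and 10.1 RPKM in linseed and 3.06, 0.0749 and 10.6 RPKM in control libraries, so its positive log2 change of 0.37 came from ewe 2, where the control value rested on 3 reads. VPS37C, of ESCRT-I, had 1.96, 4.21 and 9.3 RPKM in linseed and 3.86, 3.22 and 10.1 RPKM in control libraries. VPS37A, of the same complex, was lower in each ewe, with 1.72, 0.932 and 3.65 RPKM in linseed and 4.13, 2.56 and 4.81 RPKM in control libraries (log2 change -0.71, SE 0.58, adjusted p = 0.549). VPS37D had at most 0.148 RPKM.

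VPS50, part of the EARP tether of recycling endosomes, had 0.56, 1.67 and 4.24 RPKM in linseed and 4.11, 4.84 and 3.94 RPKM in control libraries, the pattern of VPS29 with ewe 3 apart. The GARP and EARP subunit VPS53 did not exceed 0.431 RPKM. VPS13C, a long bridge protein that moves lipids between membranes, had 0, 0.112 and 0.532 RPKM in linseed and 0.625, 0.455 and 5.26 RPKM in control libraries, and control ewe 3 held most of the difference. Its relatives VPS13B and VPS13D had means below 1 RPKM. VPS45, which guides SNARE fusion at early endosomes, had 0.291, 0.12 and 2.71 RPKM in linseed and 1.4, 1.72 and 1.8 RPKM in control libraries. VPS72 carries the name but is a subunit of chromatin-remodelling complexes in the nucleus, and it had 23.5, 36.2 and 47.7 RPKM in linseed and 26.3, 31.5 and 35.9 RPKM in control libraries.

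**Figure D3:**
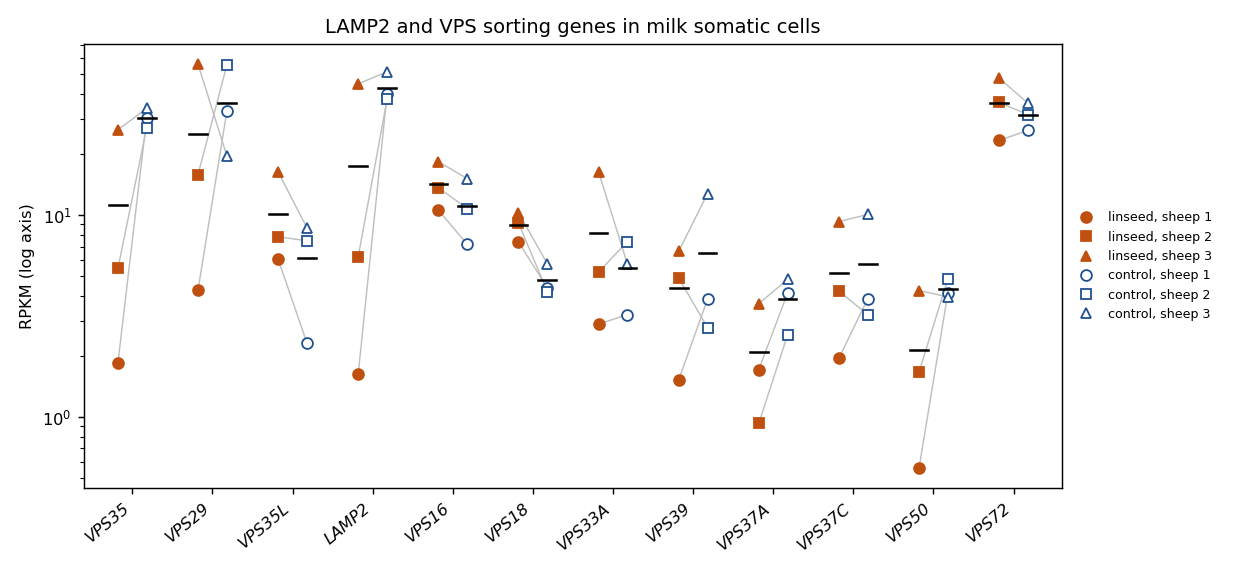
RPKM of LAMP2 and 11 VPS genes on a log axis, with filled marks for linseed and open marks for control, a shape for each ewe, grey lines within an ewe and black bars at group means. VPS35 and LAMP2 have tight control marks between 27.2 and 51.3 RPKM and linseed marks that run up to 44.8 RPKM in ewe 3, whereas VPS18 has its linseed marks above its control marks.

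Ewe 3 differed from ewes 1 and 2 in a recurring way. Of the 51 tested members, 13 (25.5%) were lower under linseed in ewes 1 and 2 and higher in ewe 3, against 9.51% of all tested transcripts, a pattern picked out after the values were seen. These were 6 of the 9 tested V1 subunits (ATP6V1A, ATP6V1B2, ATP6V1C1, ATP6V1E1, ATP6V1G1 and ATP6V1H), with ATP6V0A1, MCOLN1, VPS26C, VPS29, VPS33A, VPS50 and VPS45. Their ewe 3 differences ran from 0.08 (VPS50), 0.09 (VPS26C) and 0.12 (ATP6V1G1) to 1.46 log2 units (VPS29 and ATP6V1E1). The second ATP6V1H transcript kept the pattern, but all other ATP6V0A1 transcripts were higher in each ewe. A MCOLN1 transcript of nearly equal level had differences of 2.58, 1.04 and -0.62. In ewe 3, 16 members (31.4%) were higher by over 1 log2 unit, against 15% of all tested transcripts, while 10 members (19.6%) were lower by over 1 log2 unit in both ewe 1 and ewe 2, against 10.4%. Across the 51 members the log2 differences of ewes 1 and 2 correlated at r = 0.82, those of ewes 1 and 3 at 0.43 and those of ewes 2 and 3 at 0.36, and across all tested transcripts the values were 0.64, 0.37 and 0.30. These are descriptions across genes that share the same libraries. Linseed libraries 1 and 2 were the shallowest, and their epithelial marker sums of 66541 and 79395 RPKM exceeded the 4789 RPKM of linseed library 3. The control sums of 266549, 177141 and 18001 RPKM were also lowest in ewe 3. The part of depth and of cell composition in this pattern was not tested.

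**Figure D4:**
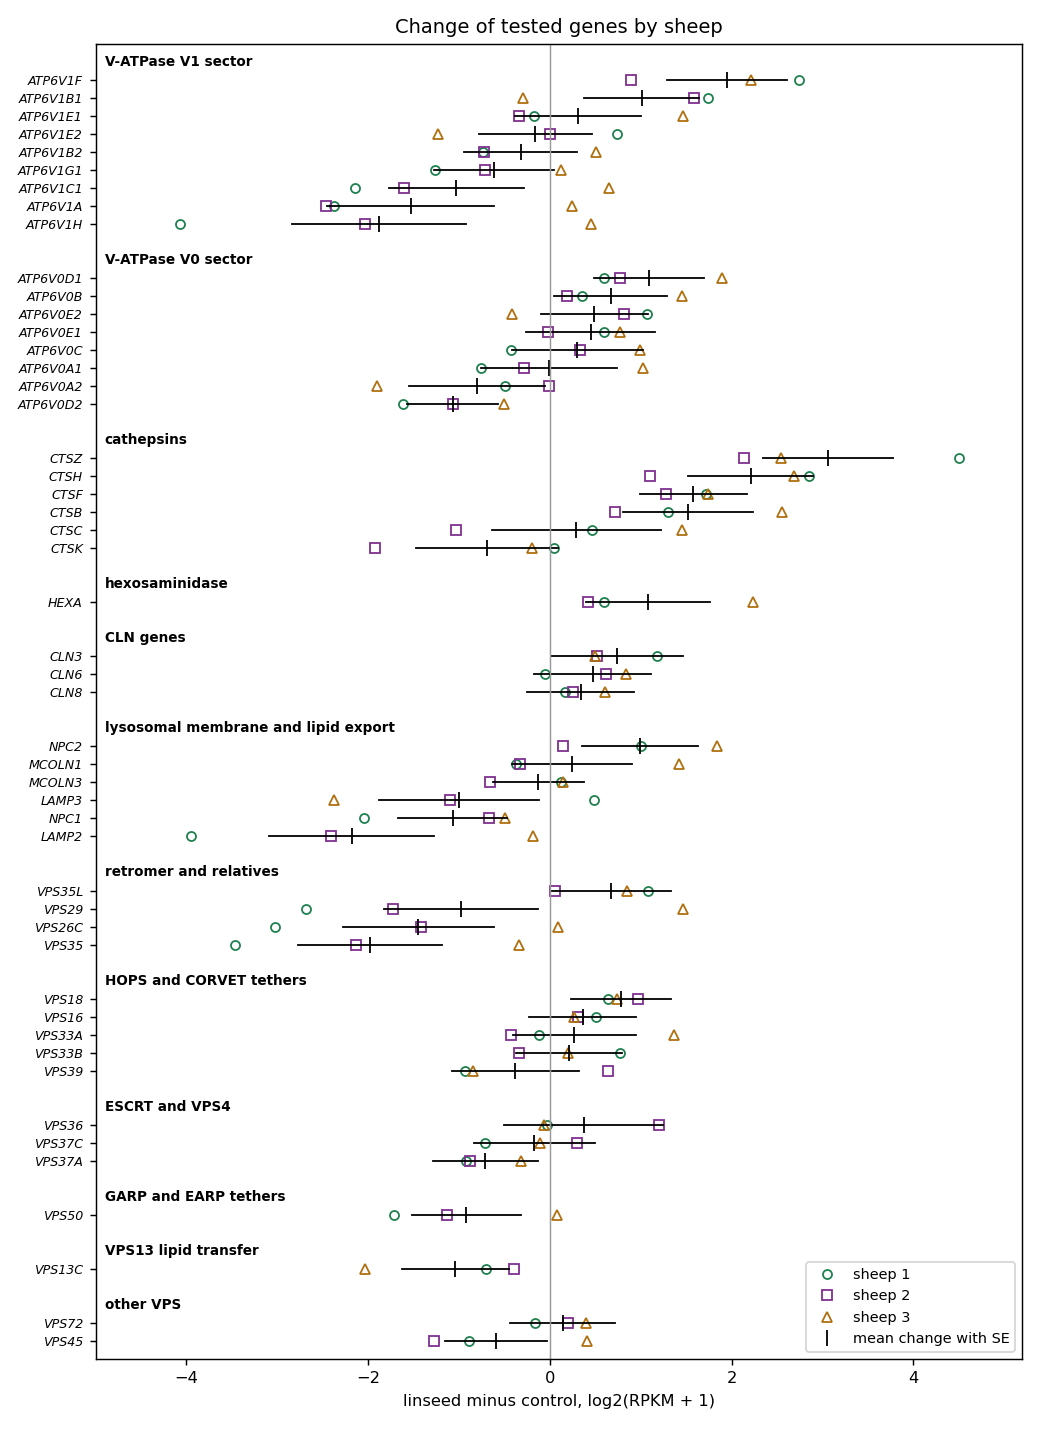
Linseed minus control difference in log2(RPKM + 1) for the tested genes reported here, by role group, with a mark for each ewe and a black tick with bars for the mean change and its SE from limma without the block. Cathepsins CTSZ, CTSH, CTSF and CTSB lie right of 0 in all 3 ewes, and several V1 and retromer genes have ewes 1 and 2 to the left of 0 and ewe 3 near it or to its right.

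Members that were higher under linseed tended to have shorter transcripts. Across the 51 members the log2 change correlated with log2 transcript length at r = -0.34, and across all 15891 tested transcripts at -0.32, so that the members followed the same trend as the whole table. Within ewe 3 the value was -0.53 over members and -0.32 over all tested transcripts. The points share libraries and length enters every RPKM, and no test was made. ATP6V1F, at 750 nt, was among the short transcripts with a higher level, and ATP6V1A, at 4389 nt, among the long ones with a lower level, but VPS29, at 997 nt, was lower and VPS18, at 4036 nt, was higher. With a length correction the log2 change of CTSZ was 2.82, and that of LAMP2 was -1.93. The median of all members became 0.00, beside -0.04 for all tested transcripts.

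**Figure D5:**
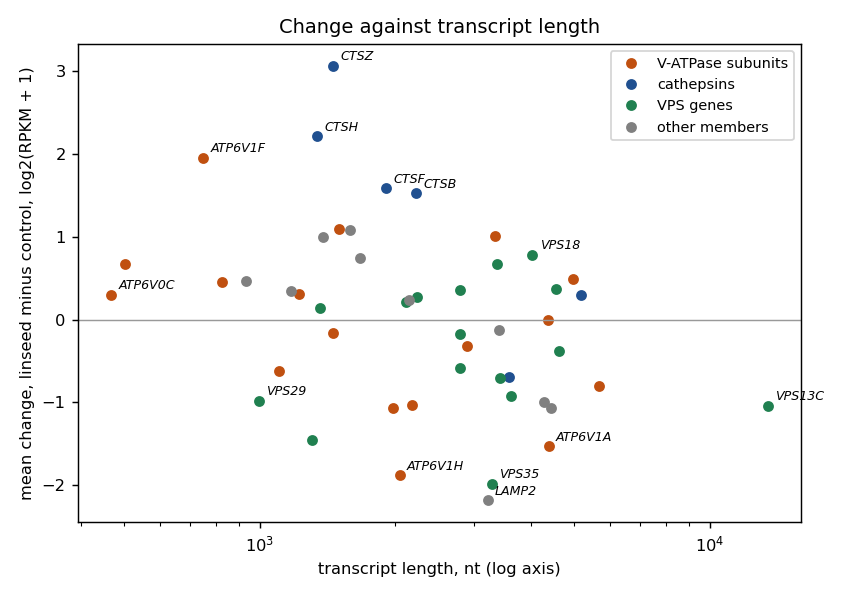
Mean log2 change, linseed minus control, of the tested members reported here against transcript length in nt on a log axis, coloured by gene family. CTSZ and CTSH lie highest, LAMP2 and VPS35 lie lowest, and the V-ATPase subunits spread from ATP6V1F at 1.95 to ATP6V1H at -1.88.

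Other lysosomal genes outside the symbol rule were read from a separate list of 65 genes, of which 45 were matched and 42 tested. None was called in limma without the block, 8 had an unadjusted p under 0.05 (15.5% of all tested transcripts did), and 21 were higher and 3 lower under linseed in all 3 ewes (23% and 26.2% of all tested transcripts), with a median log2 change of 0.48. By ewe, the median over all 42 was 0.21, 0.10 and 0.81. The acid hydrolases and their activators, 24 tested, had a median of 0.57, and by ewe it was 0.21, -0.08 and 0.97. Of these genes, 12 were higher in all 3 ewes and 1, MANBA, was lower in all 3 (log2 change -0.65). ACP5, the tartrate-resistant acid phosphatase of osteoclasts and macrophages, had 336, 329 and 417 RPKM in linseed and 113, 106 and 112 RPKM in control libraries, without overlap (log2 change 1.70, SE 0.56, adjusted p = 0.263). ARSA, which removes sulfate from sulfatides, had 25.9, 43.3 and 43.7 RPKM in linseed and 9.17, 15.5 and 5.87 RPKM in control libraries, also without overlap. The 9 tested genes of other membrane and transport proteins had a median of 0.16, and 4 of them were higher in all 3 ewes.

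The Ragulator complex, which anchors nutrient sensing to the lysosomal surface, had 4 tested genes that did not move together. LAMTOR2 had 244, 168 and 136 RPKM in linseed and 24.1, 85.1 and 32 RPKM in control libraries, and LAMTOR3 had 2.18, 2.26 and 28.3 RPKM in linseed and 19.7, 21.6 and 23 RPKM in control libraries. LAMTOR4 had 117, 92.8 and 99.5 RPKM in linseed and 25, 48 and 32.4 RPKM in control libraries, and LAMTOR5 had 48.5, 83.5 and 83.7 RPKM in linseed and 78.8, 107 and 52.5 RPKM in control libraries. LAMTOR2 and LAMTOR4 separated the groups, LAMTOR5 did not, and LAMTOR3 repeated the pattern in which only linseed ewes 1 and 2 were low. TFE3, a transcription factor that drives lysosomal genes, was lower in each ewe, with 1.85, 3.6 and 28.9 RPKM in linseed and 5.71, 9.47 and 38.4 RPKM in control libraries (log2 change -0.94, SE 0.94, adjusted p = 0.627).

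The natural inhibitors of cathepsins were also measured. CST3, cystatin C, had 324, 816 and 545 RPKM in linseed and 42.4, 528 and 105 RPKM in control libraries, higher in each ewe with overlapping groups. CST6, cystatin E/M, known from skin and mammary epithelium, had 767, 1242 and 34.4 RPKM in linseed and 94.3, 111 and 9.9 RPKM in control libraries. It was higher in each ewe although the ewes differed widely, and with the sheep as a block its log2 change of 2.73 was called (SE 0.61, adjusted p = 0.0441 in limma), whereas without the block it was not (SE 1.28, adjusted p = 0.333). In 5 of the 6 other blocked settings no transcript was called. CSTA, cystatin A, was scarce, with 1.85, 8.68 and 0.613 RPKM in linseed and 0.27, 6.76 and 0 RPKM in control libraries. SERPINB1, an inhibitor of neutrophil serine proteases, cathepsin G among them, had 165, 144 and 203 RPKM in linseed libraries. In control libraries SERPINB1 had 276, 89 and 111 RPKM and did not separate the groups.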

How the data were processed

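Milk somatic cell RNA of 3 ewes was sequenced on both diets, 6 libraries in all. The authors deposited 1 table of 49705 RefSeq transcripts whose values are named RPKM in the table (decimal commas, which is why its unit is listed as other). Trimmomatic 0.33 had trimmed the reads, per the submitters' processing notes. The aligner, build and counter were not given in the sources used here. Symbols came from a RefSeq table of assembly ARS-UI_Ramb_v3.0, used for names alone, matched without version: 15836 transcripts (31.9%) matched. Of 84 annotated symbols that meet the rule, 23 had no match and are not analysed here. How reads were divided between transcripts of a gene or between paralogs is not known, and 17 members have several transcripts.

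Values were taken as log2(RPKM + 1), which understates the change of low transcripts. The 15891 transcripts that averaged 1 RPKM or more were fitted with limma 3.58.1 in R 4.3.3 (mean-variance trend, Benjamini-Hochberg over all of them, adjusted p under 0.05 called), linseed minus control. An SE or p printed with no tool named is from this fit. Depths and lengths were solved from the RPKM steps at a tolerance of 0.002 reads, and recovered between 99.43% and 99.82% of each total. A count-based fit, voom on those reads, called 0 transcripts with or without the block. A limit for 0 reads is 3 reads and covers counting error only. The script was tested on simulated data.

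The same 3 ewes gave both groups by animal identifier, which pairs the libraries. Deviations from group means correlated at 0.18, 0.25 and 0.40 within ewes 1, 2 and 3, and control ewe 1 correlated at 0.24 with linseed ewe 2. The sheep as a replicate block is given where it changes a call. Each ewe gave 1 library per diet, so the spread within a group is that between ewes.

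The members, role groups and lists were chosen with earlier results of these data known. In each role group the 2 members of highest mean and up to 4 of smallest unadjusted p are given in full, the others by values or range. A few members are not reported by name, though counts and medians include them. No sequences are shown and no promoter motif was searched.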

Additional observations from a re-analysis of the deposited data

How the results depend on the processing

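Besides the fit reported, 15 alternatives were fixed with the design and 9 were added after seeing the data (voom on recovered reads, leaving out both libraries of an ewe, and further settings combined with the block). The replicate block called 1 member, CTSZ, and 416 transcripts in all, where the unblocked fit called 0 of both, and it changed no other call among the members. With milk protein genes left out as well, it called 6 members (ATP6V1A, ATP6V1H, LAMP2, VPS26C and VPS35 lower, CTSZ higher, 11.8%) and 2027 transcripts (12.8%). Every other setting called none. The members' median of 0.21 was -0.30 with milk proteins left out and ranged from -0.27 to 0.50 with 1 library left out. Under quantile normalization and under a length correction it was 0.00, beside -0.01 and -0.04 for all tested transcripts. The causes of these shifts were not tested.

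Of the 40 members that the naming rule takes, 28 had the same sign in every setting tried. With quantile normalization the log2 change was -0.26 for ATP6V1E1, -0.12 for ATP6V0E1, -0.27 for ATP6V0C and -0.08 for VPS72. With milk proteins left out it was -0.29 for ATP6V1E1, -0.15 for ATP6V0E1, -0.30 for ATP6V0C, -0.16 for CLN8, -0.19 for VPS16, -0.23 for VPS33A, -0.07 for VPS36 and -0.44 for VPS72. With a length correction, with or without the block, it was -0.01 for ATP6V1E1, -0.07 for ATP6V0E1, -0.38 for ATP6V0C, -0.01 for CLN8, 0.02 for VPS39, 0.00 for VPS37C and -0.13 for VPS72. With 1 library left out the lowest and highest values were -0.17 and 0.83 for ATP6V1E1, -0.05 and 0.87 for ATP6V0E1, -0.26 and 0.95 for ATP6V0C, -1.38 and 0.04 for ATP6V0A2, -1.93 and 0.05 for LAMP3, -0.75 and 0.18 for VPS39, -0.33 and 0.75 for VPS33A, -0.64 and 0.26 for VPS37C, -0.52 and 1.19 for VPS36, and -0.09 and 0.41 for VPS72.

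With 3 ewes, a difference in 1 library can set a value. The shallowest library, linseed ewe 1, held 4941935 reads. Its value rests on under 30 reads for LAMP2, ATP6V1H, VPS26C, VPS29, VPS50 and other members of low level, and on 30 reads for VPS35. Its counting error is large there.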
